A study of Mus musculus with 4 samples.

Results

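The genes described here encode the constitutive subunits of the proteasome, the protease that degrades proteins tagged with ubiquitin. Members were taken by symbol, as Psma, Psmb, Psmc or Psmd followed by a number, without the immunoproteasome subunits Psmb8, Psmb9 and Psmb10. The set itself was chosen with earlier results of these data known. Of 33 such genes on the array, 32 had at least 1 spot with a value on all 4 arrays, out of 8676 named genes measured in that way. They were covered by 49 spots, and 14 of the genes had several. The thymus subunit Psmb11 had a spot but no value. Psma8, Psmd1 and Psmd13 were not analysed here. RNA came from RIF-1, a mouse cell line derived from a radiation-induced fibrosarcoma, in which RNA interference targeted Rnf20, the gene of Bre1a, or Rnf40, the gene of Bre1b. Bre1a and Bre1b are partner proteins of the E3 ligase that ubiquitinates histone H2B. Per knockdown there were 2 two-colour arrays. Cy5 marked the knockdown RNA, and Cy3 marked the control RNA, from a GFP mock knockdown on 1 array and from cells without knockdown on the other. Every value below is a log2 ratio, knockdown over control, and each mean is given with its SD over the 2 arrays of a knockdown (n = 2), which includes the difference between the 2 controls.

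The proteasome is a barrel, the 20S core, capped by the 19S particle. Outer rings of alpha subunits gate the core and inner rings of beta subunits hold its protease sites. In the 19S particle a ring of ATPases unfolds the substrate, further base subunits bind ubiquitin, and the lid removes ubiquitin chains. In mammalian cells the transcription factor NRF1 (gene Nfe2l1) is known to raise many of these genes together when proteasome activity is short, while interferon replaces 3 catalytic beta subunits with the immunoproteasome forms.

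The labels named the target of each array, and the targets bore them out. Rnf20 was at -1.35 against mock and -1.60 against no knockdown on the Bre1a arrays, and Rnf40 at -1.23 and -1.49 on the Bre1b arrays. Medians of the 4 arrays lay between -0.033 and 0.014, and 19874 to 22255 spots per array had a value. No array had the dyes swapped, so in values against a control a gene's dye bias and its response to the knockdown cannot be told apart. Spot intensities were not analysed here. Since the arrays hold ratios, the level of no cell type marker could be read. A ratio cannot separate less RNA per cell from fewer cells that express the gene.

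Many proteasome spots sat at a single value. Each array holds 1 value that recurs, on 702 to 843 spots, at 0.148 and 0.079 on the Bre1a arrays against mock and against no knockdown, and at -0.079 and 0.11 on the Bre1b arrays. What the value marks is not given in the sources used here. Within 0.002 of that value on all 4 arrays were 5 of the 49 proteasome spots (10.2%), compared with 276 of 12958 named spots (2.13%), and a further 9 proteasome spots were there on 1 to 3 arrays. In all, 14 proteasome spots (28.6%) touched the value at least once, against 6.27% of named spots. Psma2, Psma5, Psmb1 and Psmb4 had no other spot, so nothing can be said of their direction. For Psma4, Psma7, Psmc2, Psmc3 and Psmd4 every spot was affected on at least 1 array. The alpha ring was the most affected, with 4 of its 7 genes, while all 7 lid genes and all 3 chaperone genes had a spot that never met the value.

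**Figure D1:**
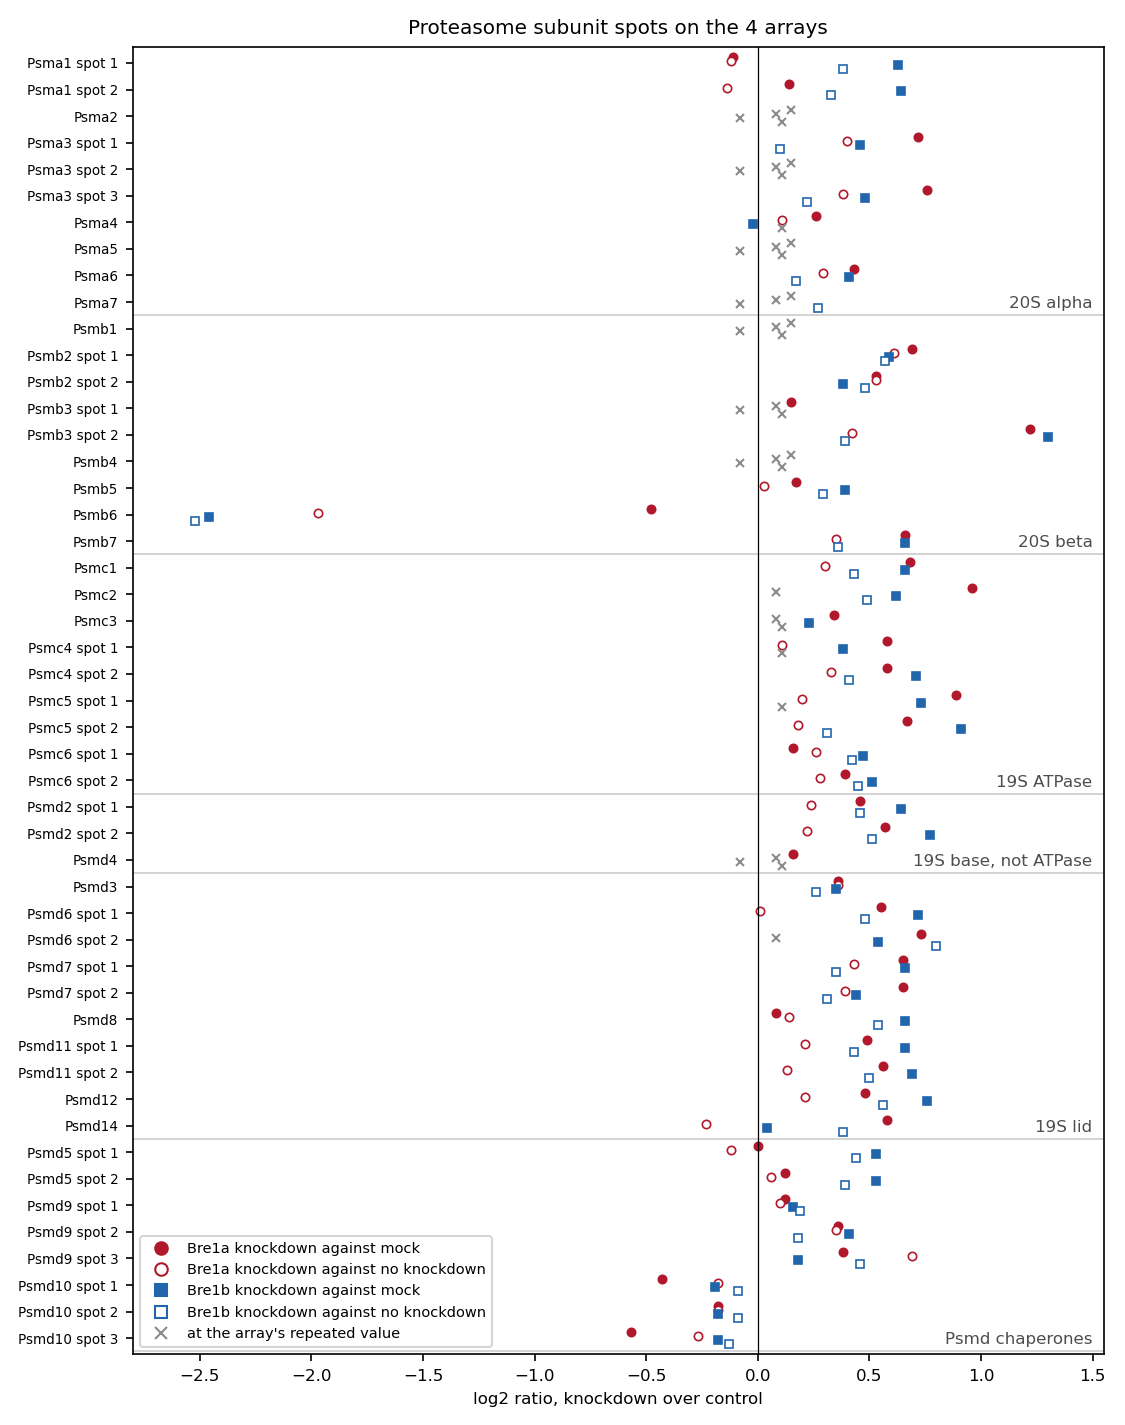
Log2 ratio of knockdown over control (horizontal axis) for each of the 49 proteasome spots (rows, grouped by subunit class) on the 4 arrays. Filled symbols are arrays against mock, open symbols arrays against no knockdown, circles Bre1a and squares Bre1b, and grey crosses mark values within 0.002 of the repeated value of the array. Of the 35 spots without a cross, 27 are above 0 on all 4 arrays, while Psmb6 lies between -2.52 and -0.48.

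After either knockdown a part of the proteasome transcripts, in the core as in the 19S particle, was modestly higher than in the controls. In the Bre1a knockdown 15 of the 32 genes rose and 1 fell, where limma called 21.1% of all genes higher and 19.9% lower. In the Bre1b knockdown 20 rose and 1 fell, against a background of 32.3% higher and 28.2% lower. With the arrays scaled to 1 spread, 7 rose in the Bre1a knockdown and 4 in the Bre1b knockdown. The share of all genes called in that fit is not given here, so these 2 counts have no background. All 15 genes that rose with Bre1a knockdown also rose with Bre1b knockdown. How many of all genes rose in both is not given here, so the overlap cannot be called particular to the proteasome. Both comparisons use the same 2 kinds of control, and the labels do not say whether the control RNA was the same, so this overlap is no independent support. The increases were small, with mean log2 ratios from 0.27 to 0.59 for Bre1a (121% to 150% of control) and from 0.21 to 0.66 for Bre1b (116% to 158% of control). Medians over the 32 genes were 0.30 for Bre1a and 0.37 for Bre1b, beside 0.03 and 0.02 over all genes.

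Every call came from the 23 genes with a spot free of the repeated value, and 0 of the 9 other genes was called by limma in either knockdown. Adjusted p-values of the called genes ran from 0.0223 to 0.0335 for Bre1a and from 0.00952 to 0.0448 for Bre1b (limma, Benjamini-Hochberg over 8676 genes). The calls rest on a model term for the control. It takes a gap between the controls that both knockdowns share out of the spread behind the p-values. Each printed SD keeps that gap, so a p-value is not a test against the SD beside it. Without the control term 0 of 32 genes was called higher in either knockdown, where 0.0115% of all genes were for Bre1a and 0.426% for Bre1b. In that fit 12 and 16 members were higher at an unadjusted limma p below 0.05, for which the share of all genes is not given here.

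By sign alone, above 0 on all 4 arrays were 20 of the 32 genes, against 24.0% of all genes, and 18 of the 23 genes once values at the repeated value were dropped. A ratio of at least 0.4 on both arrays of a knockdown was met by 2 genes for Bre1a (3.87% of all genes) and by 10 for Bre1b (10.6% of all genes). The 2 were Psmb2 and Psmd7. The 10 were Psmb2, Psmc1, Psmc2, Psmc6, Psmd2, Psmd5, Psmd6, Psmd8, Psmd11 and Psmd12.

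**Figure D2:**
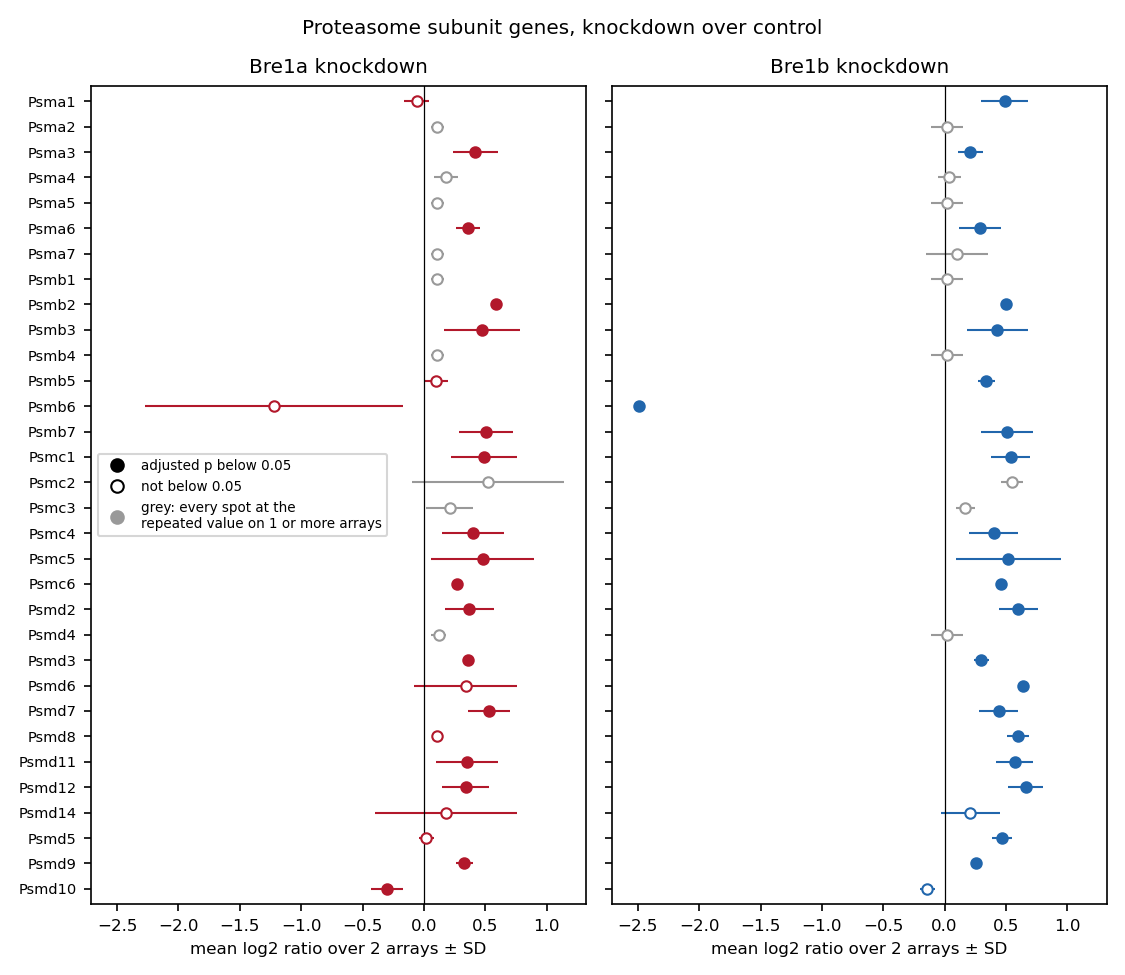
Mean log2 ratio of knockdown over control (horizontal axis) with its SD over 2 arrays for the 32 proteasome genes, in Bre1a knockdown (left) and Bre1b knockdown (right). Filled points have a limma adjusted p below 0.05, and grey points are genes of which every spot sat at the repeated value on 1 or more arrays. Filled points lie to the right of 0 except Psmd10 in Bre1a knockdown and Psmb6 in Bre1b knockdown.

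Of the 7 alpha subunits, Psma3 and Psma6 rose in both knockdowns and Psma1 rose in the Bre1b knockdown. Psma6 had ratios of 0.43 and 0.29 on the Bre1a arrays (mock, then no knockdown) and of 0.41 and 0.17 on the Bre1b arrays, above 0 on each. Psma3 has 3 spots. Of these, 2 read 0.72 and 0.76 on the Bre1a array against mock and 0.40 and 0.38 on that against no knockdown, whereas the third sat at the repeated value on all 4 arrays and lowered the gene's mean to 0.42 ± 0.18 for Bre1a and 0.21 ± 0.10 for Bre1b. These spots of 1 gene differed by up to 0.61 on an array. Psma1 differed between the knockdowns. Its gene means were 0.01 and -0.13 in the Bre1a knockdown, against 0.63 and 0.36 in the Bre1b knockdown, and its 2 spots differed by at most 0.25. Psma2, Psma4, Psma5 and Psma7 were not called, with means from 0.11 to 0.18 for Bre1a and from 0.02 to 0.10 for Bre1b, and between 1 and 4 of their values were repeated ones.

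Among the 7 beta subunits 3 rose in the Bre1a knockdown (Psmb2, Psmb3 and Psmb7) and 4 in the Bre1b knockdown (the same 3 and Psmb5). Psmb2, which is not one of the protease subunits, rose to a like extent on all 4 arrays. Its ratios were 0.61 and 0.57 on the Bre1a arrays and 0.48 and 0.52 on the Bre1b arrays, so the control made little difference (mean 0.59 ± 0.02 and 0.50 ± 0.03, limma adjusted p = 0.0223 and 0.0109). Psmb7, the subunit with trypsin-like activity, had 0.66 and 0.35 on the Bre1a arrays and 0.66 and 0.36 on the Bre1b arrays. Here both knockdowns gave nearly the same pair of values, higher against mock. A second Psmb7 spot, left out of the fit for want of a value for Bre1a against no knockdown, read 0.70 for Bre1a against mock and 0.72 and 0.49 on the Bre1b arrays.

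Psmb5, the subunit with chymotrypsin-like activity, had 0.17 and 0.03 on the Bre1a arrays and was not called there (limma adjusted p = 0.131). It rose in the Bre1b knockdown with 0.39 and 0.29 (limma adjusted p = 0.0148). The Bre1a minus Bre1b difference of Psmb5 was not called (-0.24, limma adjusted p = 0.0718). Psmb3 has a structural place in the ring. Its 2 spots disagreed by up to 1.38, since 1 sat at the repeated value on 3 arrays and the other read 1.22 and 0.42 on the Bre1a arrays and 1.30 and 0.39 on the Bre1b arrays. Its calls rest on how the spots are joined. With 1 spot per gene, the spot kept was the one at the repeated value on 3 arrays. Psmb3 was then at 0.12 for Bre1a and 0.02 for Bre1b (limma adjusted p = 0.271 and 0.857), which says nothing of its direction. Without repeated values the Bre1a call was lost (0.55, limma adjusted p = 0.0775), while the Bre1b call stayed (0.84, limma adjusted p = 0.0292). In that fit the array of Bre1a against mock still averaged both spots (0.15 and 1.22). The other 3 arrays kept 1 spot, so these 2 means do not compare the knockdowns on the same spots.

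Psmb6, the subunit with caspase-like activity, was the exception. Its single spot read -0.48 and -1.97 on the Bre1a arrays and -2.46 and -2.52 on the Bre1b arrays and was the lowest member gene on all 4 arrays. The gene fell in the Bre1b knockdown (-2.49 ± 0.04, 17.7% of control, limma adjusted p = 0.0185). In the Bre1a knockdown it was at -1.22 ± 1.05 (adjusted p = 0.0777, and 0.0399 with the arrays scaled to 1 spread), and the 2 arrays differed by more than the mean. No second spot was there to set beside it. Psmb1 and Psmb4 sat at the repeated value throughout.

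All 6 ATPases of the 19S base had ratios above 0 on all 4 arrays. In each knockdown Psmc1, Psmc4, Psmc5 and Psmc6 rose, while Psmc2 and Psmc3 did not pass the test. Psmc5 had 0.78 and 0.19 on the Bre1a arrays and 0.82 and 0.21 on the Bre1b arrays. That is a wide gap between the controls and almost none between the knockdowns (0.48 ± 0.42 and 0.52 ± 0.43, limma adjusted p = 0.0224 and 0.0101). Psmc1 had 0.68 and 0.30 on the Bre1a arrays and 0.66 and 0.43 on the Bre1b arrays. By contrast Psmc6 hardly differed between controls, with 0.28 and 0.27 on the Bre1a arrays and 0.49 and 0.43 on the Bre1b arrays, though its Bre1a call was lost with 1 spot per gene (adjusted p = 0.0657). Psmc2 had the largest ATPase means, 0.52 ± 0.62 for Bre1a and 0.55 ± 0.09 for Bre1b, but its values of 0.96 and 0.08 on the Bre1a arrays include 1 at the repeated value (adjusted p = 0.111 and 0.0851). Psmc3, at the repeated value on both arrays against no knockdown, had means of 0.21 ± 0.19 and 0.17 ± 0.08.

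Of the other base subunits, Psmd2 and Psmd4 were measured. Psmd2, the large scaffold subunit of the base, rose in both knockdowns, with 0.52 and 0.23 on the Bre1a arrays and 0.71 and 0.48 on the Bre1b arrays. Its 2 spots agreed within 0.13. The ubiquitin receptor Psmd4 was at the repeated value on 3 arrays and was not called.

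Of the lid genes, 4 of 7 were higher in the Bre1a knockdown and 6 of 7 in the Bre1b knockdown. Psmd3, Psmd7, Psmd11 and Psmd12 rose in both. Psmd7, the partner of the deubiquitinase in the lid, had 0.65 and 0.41 on the Bre1a arrays and 0.55 and 0.33 on the Bre1b arrays. Psmd12 had 0.48 and 0.21 on the Bre1a arrays and 0.76 and 0.56 on the Bre1b arrays, the highest mean of any member for Bre1b (0.66 ± 0.14, limma adjusted p = 0.00952). Both genes were above 0 on every array, and their Bre1a minus Bre1b differences of 0.09 and -0.32 did not pass the test (adjusted p = 0.268 and 0.0538).

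Psmd11 had 0.52 and 0.17 on the Bre1a arrays and 0.67 and 0.46 on the Bre1b arrays. Psmd6 and Psmd8 rose in the Bre1b knockdown and were not called in the Bre1a knockdown. Their Bre1a minus Bre1b difference was called for Psmd8 (-0.49, limma adjusted p = 0.0477) but not for Psmd6 (-0.30, limma adjusted p = 0.328). Psmd6 had 0.64 and 0.04 on the Bre1a arrays, with 1 of its 2 spots at the repeated value in the lower one, and 0.63 and 0.64 on the Bre1b arrays, a call lost among genes with at least 3 values (adjusted p = 0.0553). Psmd8 had 0.08 and 0.14 on the Bre1a arrays and 0.66 and 0.54 on the Bre1b arrays. Psmd3 was nearly constant, with 0.36 and 0.36 on the Bre1a arrays and 0.35 and 0.26 on the Bre1b arrays. Psmd14, the lid deubiquitinase itself, went both ways, with 0.58 and -0.23 on the Bre1a arrays and 0.04 and 0.38 on the Bre1b arrays (limma adjusted p = 0.603 and 0.538).

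The 3 Psmd genes that encode assembly chaperones of the base rather than subunits did not move together. Psmd9 rose in both knockdowns, with 0.28 and 0.38 on the Bre1a arrays and 0.25 and 0.28 on the Bre1b arrays, though its 3 spots differed by up to 0.58. With 1 spot per gene Psmd9 was at 0.11 for Bre1a and no longer called (adjusted p = 0.129). Psmd5 rose only where Bre1b was targeted, with 0.53 and 0.41 there and 0.06 and -0.03 on the Bre1a arrays. Psmd10, also known as gankyrin, was below 0 on all 4 arrays. It fell in the Bre1a knockdown, with -0.39 and -0.21 (limma adjusted p = 0.0335), and had -0.18 and -0.11 on the Bre1b arrays (adjusted p = 0.0787). The Bre1a call was lost with scaled arrays, where Psmb6 was the only member called lower.

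**Figure D3:**
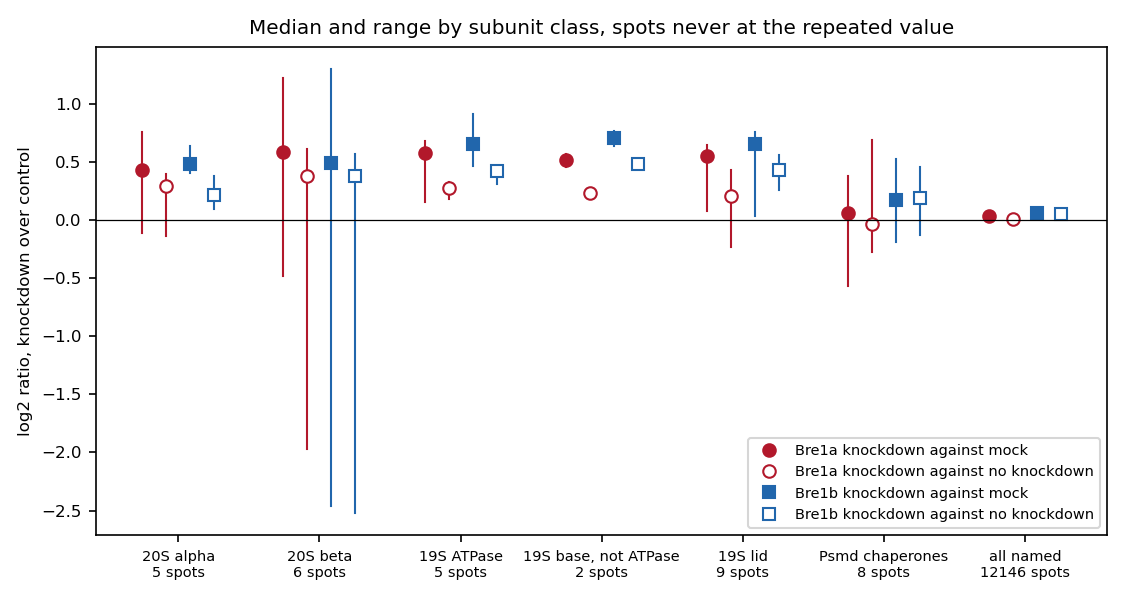
Median log2 ratio of knockdown over control (vertical axis, symbols) with the lowest and highest spot (lines) by subunit class on each array, over spots never at the repeated value; all named spots are at the right, without a range. On the arrays against mock the ATPase and lid medians lie between 0.55 and 0.66, and on those against no knockdown between 0.21 and 0.43.

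By class and array, over the spots that never met the repeated value, the ATPase medians were 0.58 against mock and 0.28 against no knockdown for Bre1a, and 0.66 and 0.42 for Bre1b. Lid medians were 0.55 and 0.21 for Bre1a and 0.66 and 0.43 for Bre1b. Those of the alpha ring were 0.43 and 0.29 for Bre1a and 0.48 and 0.22 for Bre1b, and those of the beta ring 0.59 and 0.38 and then 0.49 and 0.38. Over all named spots of that kind the medians lay between 0.01 and 0.06. With 5 alpha, 6 beta, 5 ATPase and 9 lid spots, the ranges of these 4 classes overlapped on every array. When every gene was counted, repeated values included, alpha medians came down to 0.15 and 0.08 for Bre1a and to -0.02 and 0.14 for Bre1b. ATPase medians counted in that way were 0.63 and 0.20 for Bre1a and 0.58 and 0.34 for Bre1b. With repeated values kept, the alpha median was thus under that of the ATPases on all 4 arrays. Over the spots free of them it was not lower for Bre1a against no knockdown (0.29 beside 0.28). The chaperone spots had the lowest medians of the 6 classes on all 4 arrays, from -0.03 to 0.19.

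The knockdowns were also set directly against each other. For Bre1a minus Bre1b limma called 0 of 32 genes higher and 3 lower, where 11.7% of all genes were higher and 13.2% lower. An unadjusted limma p below 0.05 was found for 7 of the 32 members and for 4136 of all 8676 genes. The 3 called lower were Psma1 (-0.55, SE 0.06, adjusted p = 0.0408), Psmd8 (-0.49, SE 0.07, adjusted p = 0.0477) and Psmd5 (-0.46, SE 0.05, adjusted p = 0.04). Against both controls each of them was between -0.13 and 0.14 in the Bre1a knockdown and between 0.36 and 0.66 in the Bre1b knockdown. Without the control term none of the 3 was called (adjusted p from 0.287 to 0.312), nor with scaled arrays, nor among genes with at least 3 values. The array images of the knockdowns are filed under different months in the labels, so month and knockdown cannot be told apart in this difference. The median of the difference over the 32 genes was 0.01, and it went to -0.08 without repeated values and to 0.09 with the arrays scaled to 1 spread.

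The ratios were also compared by control. Ratios against mock exceeded those against no knockdown for 29 of 32 genes in the Bre1a knockdown (55.4% of all genes) and for 20 of 32 in the Bre1b knockdown (48.9% of all genes). Without repeated values the numbers were 20 and 18 of 23, against 54.1% and 50.3% of all genes. For mock minus no knockdown the member median was -0.19, beside -0.01 over all genes. Here limma called 0 members higher and 1 lower, where 7.26% of all genes were higher and 6.12% lower. An unadjusted limma p below 0.05 was found for 9 of the 32 members and for 3854 of all 8676 genes. The member called was Psmc5, lower in mock cells (-0.60, SE 0.05, adjusted p = 0.0475). Its call was lost with scaled arrays (adjusted p = 0.241), with 1 spot per gene (0.0524) and among genes with at least 3 values (0.0645). Psmb2, Psmd3 and Psmc6 hardly differed by control in the Bre1a knockdown. Over the 32 genes the Bre1a median was 0.35 against mock and 0.12 against no knockdown, and the Bre1b median 0.44 and 0.27. Leaving out the Bre1a array against mock thus brought the Bre1a median to 0.12, against 0.30 with both arrays.

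The interferon-inducible counterparts went the other way. All 3 immunoproteasome subunits were called lower in both knockdowns, though for Bre1a against no knockdown Psmb10 was not below 0. Psmb9 read -1.23 and -0.31 on the Bre1a arrays and -2.42 and -1.87 on the Bre1b arrays. Psmb8 read -0.90 and -0.37, and then -1.78 and -1.26. Psmb10 read -0.82 and 0.01, and then -1.59 and -0.73. Here the ratios against mock were the lower ones, the reverse of most constitutive genes. In mock minus no knockdown Psmb8 and Psmb10 were themselves called higher (0.53 and 0.85, limma adjusted p = 0.0475 for each). Psmb9 was at 0.74 there and was not called (limma adjusted p = 0.0632). For all 3 the drop was larger with Bre1b, and the Bre1a minus Bre1b difference was called (0.89 for Psmb8, 1.37 for Psmb9 and 0.76 for Psmb10; limma adjusted p = 0.0372, 0.0378 and 0.0372).

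For the other lists, too, the background was 21.1% of genes higher and 19.9% lower for Bre1a, and 32.3% and 28.2% for Bre1b, and with 3 to 9 genes a list the counts are given as a description. The interferon-inducible pair Psme1 and Psme2 had means of -0.23 ± 0.53 and -0.16 ± 0.25 in the Bre1a knockdown, where Psme1 alone passed the test. Both fell in the Bre1b knockdown (-0.97 ± 0.47 and -0.59 ± 0.35). Their Bre1a minus Bre1b differences were called (0.74 and 0.44, limma adjusted p = 0.0372 and 0.0482). Psme3, the nuclear activator of the core, rose in both (0.39 ± 0.35 and 0.54 ± 0.36). Of 4 activators measured 1 rose and 1 fell for Bre1a, and 2 rose and 2 fell for Bre1b. Of these calls, Psme1 for Bre1a (-0.61 against mock, 0.15 against no knockdown) and Psme4 for Bre1b (0.61 and -0.09) changed sign with the control. For both genes mock minus no knockdown was called as well (0.71 and -0.70, limma adjusted p = 0.0475 for each). The same held for Psme3 (-0.51, limma adjusted p = 0.0475), whose ratios kept 1 sign. Among 4 core assembly factors measured 1 rose for Bre1a and 3 for Bre1b, while Pomp sat at the repeated value.

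Of 8 other 19S subunits and associated factors measured 1 rose and 1 fell for Bre1a, and 3 rose and 1 fell for Bre1b. The deubiquitinase Uchl5 was at 0.05 ± 0.41 for Bre1a and rose for Bre1b (0.54 ± 0.31), as did Zfand2a (0.10 ± 0.23 and 0.55 ± 0.31). For both the difference of the knockdowns was called (-0.50 and -0.45, limma adjusted p = 0.0448 and 0.0451). Zfand5 fell for Bre1a (-0.84 ± 0.44) and was at -0.30 ± 0.13 for Bre1b, but its difference was not called (-0.54, limma adjusted p = 0.0935). Txnl1, a thioredoxin-like protein bound to the 19S particle, went opposite ways, up for Bre1a (0.46 ± 0.04) and down for Bre1b (-0.41 ± 0.09), and the difference was called (0.87, limma adjusted p = 0.0372). In the list of ubiquitin, E1 and shuttle genes 3 of 9 measured rose and 1 fell for Bre1a, and 5 rose and 1 fell for Bre1b. The shuttles Ubqln1 (0.45 ± 0.24 and 0.81 ± 0.30) and Ubqln2 (0.38 ± 0.44 and 0.67 ± 0.42) rose in both knockdowns. For Ubqln1 the difference of the knockdowns was called (-0.36, limma adjusted p = 0.0489). Ubqln2 was at 0.07 for Bre1a against no knockdown, and its mock minus no knockdown difference was called (-0.61, limma adjusted p = 0.0475). Ubqln4 (0.13 ± 0.24 and 0.66 ± 0.29) and Rad23b (0.20 ± 0.23 and 0.64 ± 0.13) rose for Bre1b alone by the test, and for both the difference of the knockdowns was called (-0.52 and -0.44, limma adjusted p = 0.0391 and 0.0471). Uba6, an E1 enzyme of ubiquitin, fell in both (-0.51 ± 0.00 and -0.44 ± 0.07).

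Regulators of proteasome transcription were not higher. Of 3 measured, 2 fell in each knockdown. Nfe2l1, the gene of NRF1, read -0.50 and -0.20 on the Bre1a arrays and -0.39 and -0.08 on the Bre1b arrays (limma adjusted p = 0.0254 and 0.024). Ngly1, the deglycosylase that acts on NRF1, was at -0.39 ± 0.05 and -0.27 ± 0.12. Nfe2l2, the gene of NRF2, was not called (-0.13 ± 0.15 and 0.01 ± 0.20). These are transcript ratios, and NRF1 is known to be controlled largely as a protein.

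**Figure D4:**
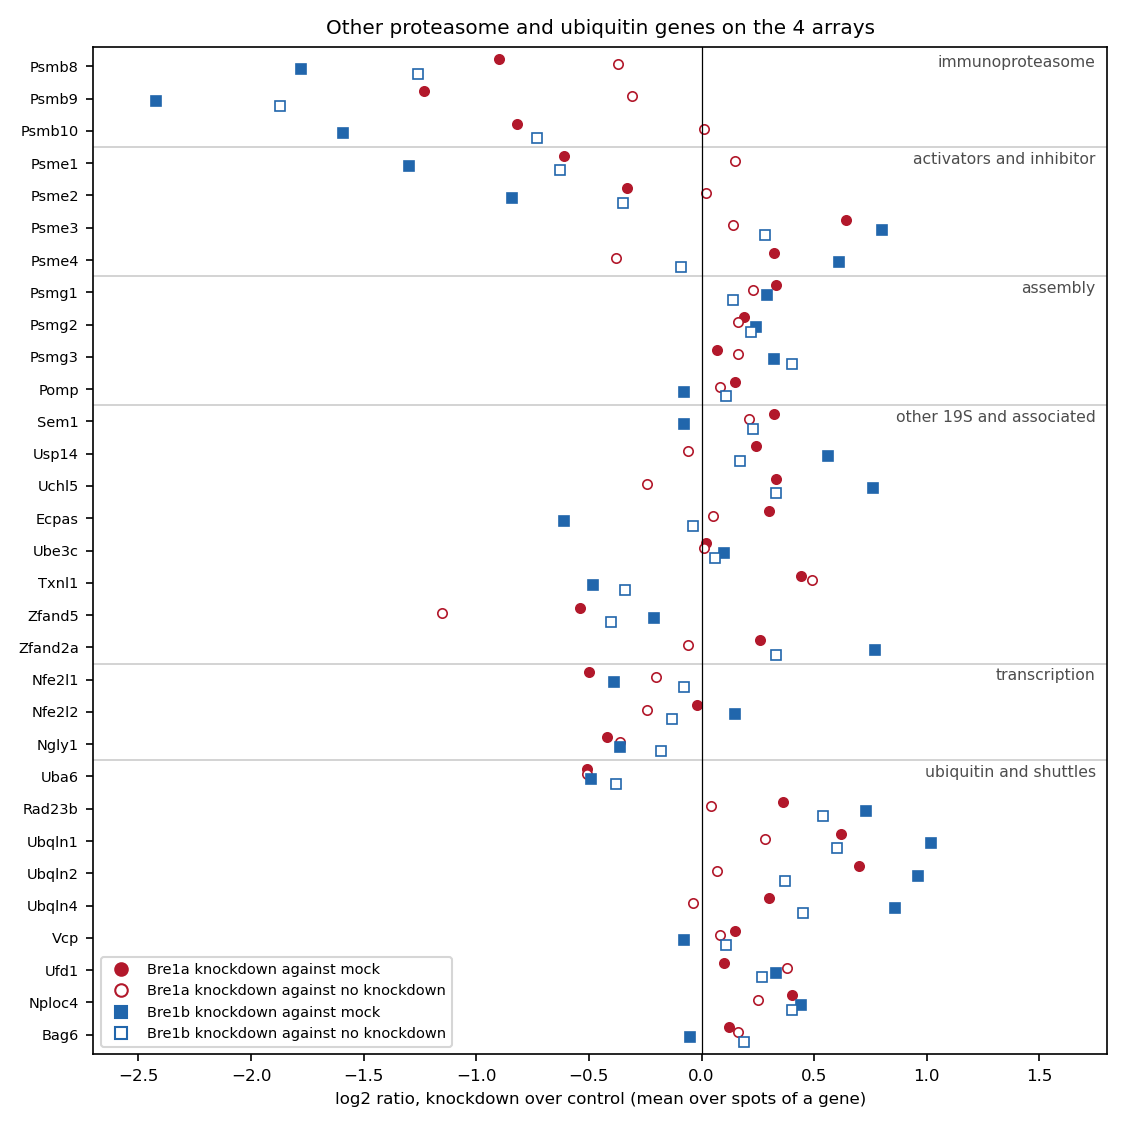
Log2 ratio of knockdown over control (horizontal axis, mean over the spots of a gene) for other proteasome and ubiquitin genes (rows, grouped by list) on the 4 arrays, with filled symbols against mock, open symbols against no knockdown, circles for Bre1a and squares for Bre1b. The immunoproteasome genes lie at or below 0.01 on every array, and Ubqln1 lies between 0.28 and 1.02.

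The members' promoters were searched for the core of the antioxidant response element, TGACNNNGC on either strand, to which NRF1 and NRF2 are known to bind. RefSeq promoters (GRCm38.p6, 250 bases before to 50 after the gene start) were found for 26 of the 32 genes, with Psmb1, Psmb2, Psmb7, Psmc3, Psmd3 and Psmd7 not matched. The core was present in 5 of these genes, or in 17.9% of their 28 promoters, against 12.4% of 32851 promoters of all genes. They were Psmb5, Psmb6, Psmc6, Psmd9 and Psmd12. The CCAAT box (CCAAT on either strand) was in 39.3% of the members' promoters and 37.4% of all, and the GC box (GGGCGG on either strand) in 60.7% and 35.7%. Motifs were counted separately, and any overlap between them was allowed. The 250 bases before the start are shown for Psmb6, the member with the lowest ratios, for Psmb5, the other protease subunit with the core, and for Psmd12, the member with the highest Bre1b mean, each 5′ to 3′ on the gene's strand with the core in capitals.
Psmb6 (chr11:70525107-70525356, plus strand): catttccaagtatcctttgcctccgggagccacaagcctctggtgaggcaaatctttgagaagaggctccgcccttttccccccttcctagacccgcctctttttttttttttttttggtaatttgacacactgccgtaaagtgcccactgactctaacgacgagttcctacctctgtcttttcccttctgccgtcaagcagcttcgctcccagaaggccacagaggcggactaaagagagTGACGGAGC
Psmb5 (chr14:54617996-54618245, minus strand): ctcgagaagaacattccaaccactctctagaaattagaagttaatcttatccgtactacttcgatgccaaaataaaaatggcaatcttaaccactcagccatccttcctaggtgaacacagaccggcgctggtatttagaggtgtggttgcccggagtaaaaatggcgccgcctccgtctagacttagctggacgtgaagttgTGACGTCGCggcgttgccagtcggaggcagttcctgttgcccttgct
Psmd12 (chr11:107479278-107479527, plus strand): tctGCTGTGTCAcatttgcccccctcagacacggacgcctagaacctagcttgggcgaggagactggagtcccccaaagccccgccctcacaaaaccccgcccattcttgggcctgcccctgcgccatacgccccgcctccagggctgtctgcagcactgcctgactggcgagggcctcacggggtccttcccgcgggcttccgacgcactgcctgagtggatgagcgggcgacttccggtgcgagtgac

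The core starts 9 bases before the gene start in Psmb6, 47 bases before it in Psmb5 and 247 bases before it in Psmd12, where it reads on the opposite strand. Of the genes with the core, Psmb5, Psmc6, Psmd9 and Psmd12 (0.66 ± 0.14) were called higher for Bre1b and Psmb6 (-2.49 ± 0.04) lower. Whether the core bears on these ratios was not tested. A match of letters is a description of the sequence and does not show that a factor binds there.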

How the data were processed

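Each deposited column holds 1 array's log2 ratios of the Cy5 over the Cy3 channel, with dyes per the labels and base 2 read from the values. How the authors scanned, corrected and normalized the arrays was not stated in labels or headers. Of 38784 spots, 22204 carry a single symbol in the platform annotation, and 16580 carry no symbol. By gene ID 22204 were found in a table of GRCm38.p6, with 0 symbols changed.

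Spots with 4 values were averaged per symbol and 8676 genes fitted in limma 3.58.1 (R 4.3.3), with both knockdowns and the control as terms. P-values are two-sided and adjusted by Benjamini-Hochberg, with calls at 0.05. There was 1 residual degree of freedom (prior 1.57). No label names separate cultures, so p-values reflect the spread of these arrays alone and that spread may be technical. With the control as a term, it is only the spread left after the gap between the controls shared by both knockdowns is removed. The titles' replicate number marks the control, so the control term is the replicate block. Same-numbered arrays' deviations correlated at 0.602 across genes, which are not independent replicates.

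Members and lists were chosen with earlier results of these data known. Values on 4 arrays are given for the largest mean of each class, members of at least 0.4 on both arrays or called with a difference of at least 0.4, and members whose spots differ by at least 0.5. Psma6, Psmb5, Psmb7, Psmd3, Psmd10 and Psmd14 were added after their values were seen. From other lists, genes with a mean of at least 0.5 in size are named, to which Psme4, Txnl1, Pomp, Nfe2l1, Nfe2l2 and Ngly1 were added in the same way. Alternatives were no control term, no repeated values, centred or scaled arrays, 1 spot per gene, a fit on spots, at least 3 values per gene, and leaving out each array. The number of arrays limits the precision.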

Additional observations from a re-analysis of the deposited data

Results flagged for a closer look

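The Bre1a minus Bre1b test called 3 of 32 proteasome genes lower (9.38%), a share under the 13.2% of all genes, with a log2 difference of -0.55 for Psma1, -0.49 for Psmd8 and -0.46 for Psmd5. Each had a lower ratio in the Bre1a than in the Bre1b knockdown with either control, and none was called in the Bre1a knockdown itself. All 3 calls were lost without the control term, with scaled arrays and among genes with at least 3 values. No group holds enough arrays for a search for outlying samples.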

How the results depend on the processing

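The counts of members rest on the control term. In the fit with no replicate block, 0 members were called for Bre1a higher or lower, Bre1b higher or lower, or Bre1a minus Bre1b lower, against 15, 1, 20, 1 and 3 with it. With the arrays scaled to 1 spread the counts were 7 for Bre1a higher, 4 for Bre1b higher, 0 for Bre1a minus Bre1b lower and 0 for mock minus no knockdown lower. The count for Bre1a lower stayed at 1, but the member was Psmb6 in place of Psmd10. With 1 spot per gene, 1 member was called for Bre1a minus Bre1b lower and 0 for mock minus no knockdown lower. With genes of at least 3 values, and in the fit on spots, both of these counts were 0, and that fit called 2 spots lower for Bre1a. Leaving out 1 array, which also needed the fit without the control term, gave 0 to 0 members for Bre1a higher, 0 to 1 for Bre1a lower, 0 to 0 for Bre1b higher, 0 to 1 for Bre1b lower and 0 to 0 for Bre1a minus Bre1b lower. No such count can be had for mock minus no knockdown, since no residual degree of freedom is left. For Bre1a lower, the member called with an array left out was Psmb6, not Psmd10. Without repeated values and with centred arrays the counts were 14 and 15 for Bre1a higher, 20 and 20 for Bre1b higher and 3 and 2 for Bre1a minus Bre1b lower.

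Member medians ran from 0.12 to 0.35 for Bre1a, from 0.27 to 0.44 for Bre1b, from -0.13 to 0.13 for Bre1a minus Bre1b (-0.07 without the Bre1b array against no knockdown) and from -0.15 to -0.11 for mock minus no knockdown when 1 array was left out. Without repeated values the Bre1a minus Bre1b median was -0.08 and the mock minus no knockdown median -0.24. Scaling gave 0.09 and -0.10, and 1 spot per gene gave -0.13 for mock minus no knockdown. Member spots at the repeated value on all 4 arrays numbered 3 by exact equality, against 5. Signs turned for 2 values that were not called, both for Bre1a knockdown: Psma1 was at 0.01 without the array against no knockdown, and Psmd5 was at -0.01 with arrays centred, -0.02 scaled, -0.06 with 1 spot per gene and -0.03 without the array against mock. The cause was not tested in any of these cases. Genes with values on 2 arrays were not run, since the model has 3 coefficients.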
